A study of Sus scrofa with 12 samples.

Results

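Pig miRNAs whose names carry a number of 1000 or more after miR were described in the uterus of newborn gilts. The members were taken by name alone: 147 of the 420 rows of the deposited table, which hold 124 of its 362 miRNA names. The lowest-numbered member was miR-1224 and the highest carried the number 9862, and the highest number among the remaining 273 rows was 935. The rows just inside and just outside this limit, miR-1224 and miR-935, were at the floor of the table in every library. All libraries were made from uteri of crossbred gilts, young female pigs of Landrace, Yorkshire, Duroc and Hampshire origin, with 4 animals in each of 3 groups. PND0 gilts were killed no later than 1 h after birth and had not nursed. PND2N gilts nursed at will for 48 h, PND2R gilts drank a commercial milk replacer for the same 48 h, and the uteri of these groups were taken at 50 h of age. The PND2N against PND2R comparison therefore concerned what was fed at equal age, while either PND2 group against PND0 joined age with feeding after birth, which cannot be told apart.

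miRNAs are short RNAs that guide Argonaute proteins to partly matching messenger RNAs and lower their output. A hairpin transcript is cut by the Drosha and DGCR8 complex and then by Dicer, and either strand of the resulting duplex, the 5p or the 3p arm, can be kept. Registry numbers follow the order of discovery, so that low numbers belong mostly to abundant miRNAs shared by many animals, and high numbers mostly to rarer miRNAs, many of them described in few species.

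The depth of the libraries sets what could be seen. The table gives a normalized signal with a floor of 1, from which whole reads were recovered, and levels below are reads per 1000000 recovered miRNA reads (rpm). Reads were summed over all 420 rows, which hold 362 names. Where rows of the same name list the same reads, these count more than once in depth and in rpm. The marker sums below likewise add all rows of a name, such as the 2 of miR-199a-3p. Depth ran from 37462 to 12159233 reads, and 4 libraries, 3 of PND2R and 1 of PND2N, held fewer than 100000, so that depth differed between the groups. A single read was worth 0.0822 rpm in the deepest library and 26.7 rpm in the shallowest, and the floor hid up to 12 reads in the deep libraries and none in 5 others. Values at the floor were taken as 0. Smooth muscle and mesenchymal marker miRNAs were above the floor in all libraries (4 of 4, summed 188813 to 346858 rpm), as were the endothelial miR-126-3p (9224 to 14765 rpm) and the 2 epithelial markers in the table (summed 320.3 to 1135 rpm), while the hepatocyte miR-122 reached at most 13.4 rpm. The skeletal muscle markers summed to 53.4 to 530.0 rpm and the brain markers to 120 to 253 rpm, each list with 1 of 2 names above the floor in all libraries. The red cell markers summed to 94.9 to 554 rpm (2 of 3) and the leukocyte markers to 86.6 to 172 rpm (1 of the 3 in the table). The part of these cells in the results below was not tested. In whole uterus, fewer cells of a type and less RNA per cell cannot be told apart.

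Most high-numbered rows were never above the floor. Of the 147 rows, 31 (21.1%; 29 names) were above it in at least 1 library, 22 (14.97%) in at least 4, 16 in at least 8 and 7 (4.76%) in all 12, and 116 were at the floor everywhere. Of the 273 lower-numbered or unnumbered rows, 255 (93.4%) were above the floor in at least 1 library, 246 (90.1%) in at least 4 and 153 (56.0%) in all 12. Among rows that 4 or more libraries held above the floor, the median of the mean level was 12.5 rpm for members and 156 rpm for the other rows.

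**Figure D1:**
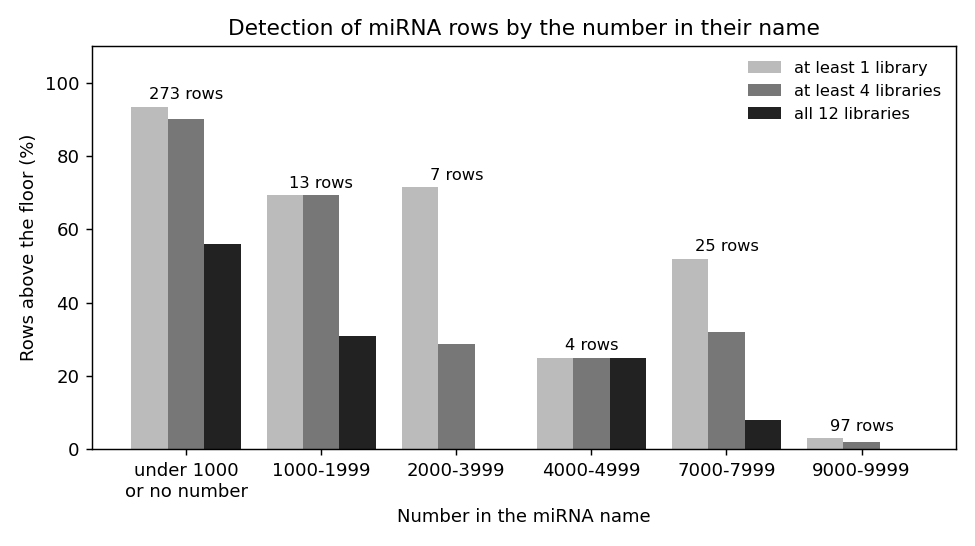
Share of rows above the floor (y axis, %) for each range of the number in the miRNA name (x axis), in at least 1, at least 4 and all 12 libraries; the number of rows stands over each range, and 1 member from the 6000s, at the floor everywhere, is not drawn. Detection in at least 1 library was 93.4% under 1000, 69.2% in the 1000s and 3.09% in the 9000s.

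Detection differed widely among the members by number. In the 1000s, 9 of 13 rows were above the floor in at least 1 library, and in the 2000s and 3000s together 5 of 7. Only 1 of 4 rows in the 4000s was, miR-4334-3p, which was above the floor in all 12 libraries. The 7000s held 13 of 25 such rows, against 3 of 97 in the 9000s, the largest block of names in the table above 1000. These 3 were miR-9843-3p, miR-9851-3p and miR-9860-5p, the last with 3 reads in 1 PND2N library. Of the rows with a number in a short list of those used for human miRNAs, 8 of 11 were above the floor in at least 1 library. For a like list from cattle it was 6 of 9, and for the remaining rows 17 of 127. The lists were not checked to be complete, so remaining rows can share a number too. A shared number is a matter of naming and was not checked by sequence.

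**Figure D2:**
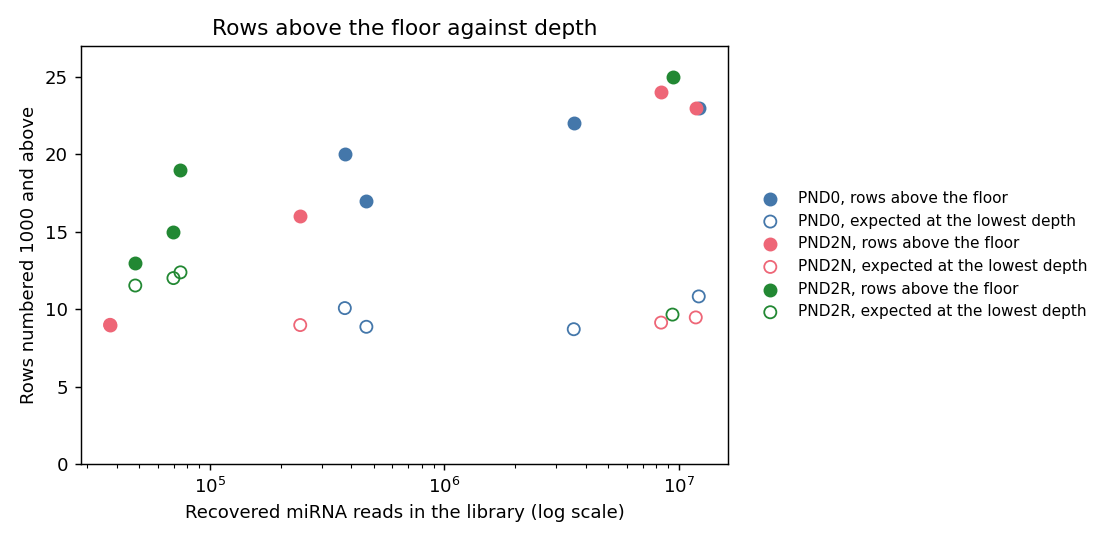
Number of member rows above the floor (y axis) against recovered miRNA reads per library (x axis, log scale), with filled points for the rows seen and open points for the number expected if the library were thinned to the lowest depth. Seen rows ran from 9 to 25 and rose with depth, though not in strict order, while expected rows ran only from 8.72 to 12.4.

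How many members a library showed rose with its depth, though not in strict order. PND2R replicate 1, with 74799 reads, showed more member rows than PND0 replicate 1, with 464476. The 5 libraries of over 1000000 reads showed 22 to 25 member rows, and the other 7 showed 9 to 20. PND0 libraries held 17, 22, 23 and 20 member rows above the floor in replicates 1 to 4, PND2N libraries 23, 9, 24 and 16, and PND2R libraries 19, 15, 13 and 25. Thinned to 37462 reads, every library would have been left with 8.72 to 12.4 expected rows, as the plot of rows against depth shows, so the seen counts do not order the groups. The highest expected numbers, 11.5 to 12.4, were those of the 3 shallow PND2R libraries, and the other 9 libraries had 8.72 to 10.8. The thinning used only reads above the floor, which hid 0 reads in these 3 libraries but up to 12 per row in the deep ones. Expected numbers of the deep libraries can therefore be too low.

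Together the members made up a small part of the miRNA reads in all groups. Their summed share was 0.138%, 0.122%, 0.172% and 0.214% in PND0 replicates 1 to 4, a mean of 0.162% ± 0.0409 (SD, n = 4). It was 0.142%, 0.235%, 0.117% and 0.169% in PND2N, a mean of 0.166% ± 0.0508, and 0.148%, 0.152%, 0.160% and 0.125% in PND2R, a mean of 0.147% ± 0.0151. The ranges of this sum overlapped in every comparison, and the differences between means were smaller than the spread within PND0 or PND2N. The highest share came from the shallowest library, PND2N replicate 2, with 88 member reads and a 95% Wilson interval of 0.191% to 0.289%, which covers counting error only. Without the 3 most abundant rows, which make up most of the sum, the share was 0.0295% ± 0.00838 in PND0 (0.0212% to 0.0388%), 0.0233% ± 0.00372 in PND2N (0.0187% to 0.0277%) and 0.0342% ± 0.00803 in PND2R (0.0283% to 0.0458%; SD, n = 4). On this smaller sum PND2R lay above PND2N without overlap, and PND0 overlapped both. The gap was narrow, from 0.0277% to 0.0283%. The floor can lower this sum unevenly. Per row it hid up to 12 reads in PND2N replicate 1 and up to 8 in PND2R replicate 4, but 0 in PND2R replicates 1 to 3. The rows left out include miR-1468, whose level was lowest in PND2R. PND2R replicates 1 to 3 held only 111, 106 and 77 member reads before the 3 rows were left out. Of these, miR-7134-3p, also left out, held 65, 54 and 46, and in PND2N replicate 2 it held 63 of 88. The smaller sum therefore rests on far fewer reads in these libraries. The difference in this smaller sum was not tested, and no background for such sums was computed. Over all 12 libraries, members from the 7000s took 0.113% of the reads, those from the 1000s 0.0357%, and the 97 rows of the 9000s together 0.00173%.

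**Figure D3:**
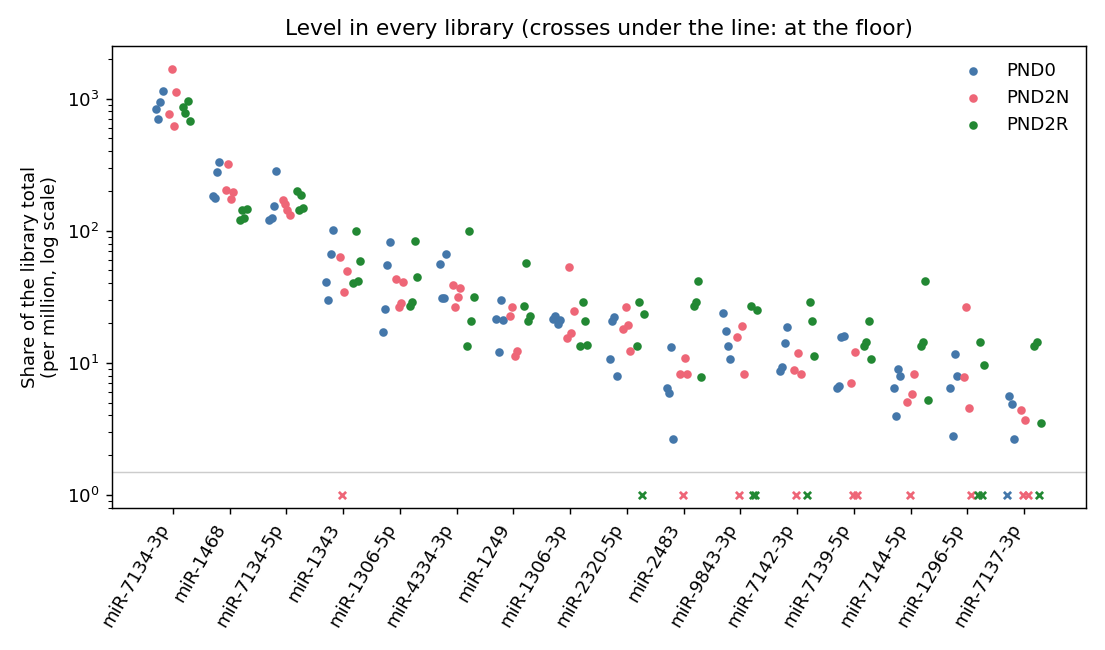
Level of the 16 member rows that 8 or more libraries held above the floor (y axis, rpm, log scale), ordered by mean, with 1 point per library coloured by group and crosses for libraries at the floor. miR-7134-3p lay between 622 and 1682 rpm in all libraries, miR-1468 and miR-7134-5p at 120 to 333 rpm, and all others at or under 101 rpm.

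More than any other member, miR-7134-3p carried the total. It held 57.9% of the member reads on average over libraries (50.9% to 71.6%) and ranked 76 among all rows by mean level (924 rpm), between miR-30b-5p (1048 rpm) and miR-107 (841 rpm). In the RefSeq annotation of the Sscrofa 11.1 assembly its hairpin lies within TNRC6B, which encodes a GW182-family partner of Argonaute. The level of miR-7134-3p was 840, 705, 940 and 1141 rpm in PND0, 765, 1682, 622 and 1121 rpm in PND2N, and 869, 773, 958 and 672 rpm in PND2R. The groups overlapped throughout, and the single high value, in PND2N replicate 2, rested on 63 reads (95% interval 1315 to 2151 rpm). The group means were 906 ± 184, 1047 ± 472 and 818 ± 123 rpm (SD, n = 4). The log2 difference was 0.12 ± 0.28 (SE; limma adjusted p = 0.883) for PND2N against PND0, -0.14 ± 0.28 (limma adjusted p = 0.893) for PND2R against PND0 and 0.26 ± 0.28 (limma adjusted p = 0.693) for PND2N against PND2R.

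**Figure D4:**
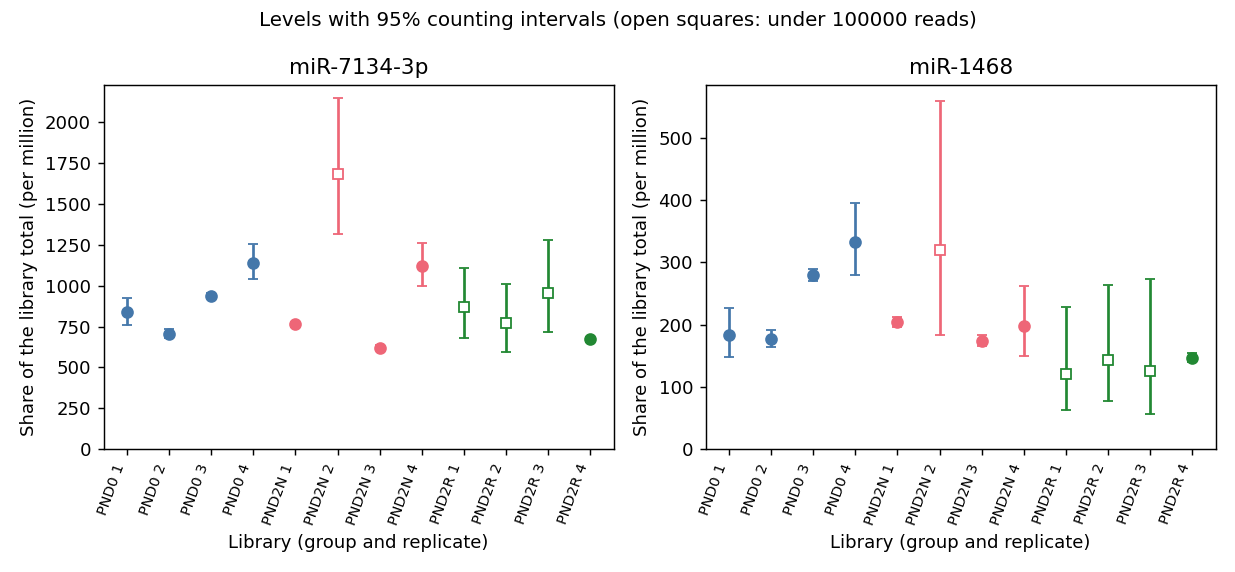
Level of miR-7134-3p (left) and miR-1468 (right) in every library (y axis, rpm; x axis, library), with 95% Wilson counting intervals; open squares are libraries of under 100000 reads. The 4 PND2R values of miR-1468, 120 to 147 rpm, lie below the other 8 values, but 3 of them have intervals that reach 229 to 273 rpm.

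Across libraries the level of miR-7134-3p went with that of miR-99a, one of the most abundant miRNAs of the table. Of all non-member rows tested, the 3 with the most similar log2 level were miR-99a (Pearson r = 0.942, 12 libraries), miR-100 (r = 0.870) and miR-30a-3p (r = 0.761). Over the 8 libraries of more than 100000 reads the values were 0.953, 0.794 and 0.677. These are descriptions: the rows were picked as the highest of all, and levels within a library share its depth and its total. miR-99a and miR-100 belong to 1 seed family in vertebrates. The miR-7134-3p level was 1.014% ± 0.105 (SD, n = 12) of that of miR-99a, with a range of 0.897% to 1.29% over libraries.

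The other arm of the same hairpin, miR-7134-5p, was the third member by level, at 164 rpm on average. It stood at 121, 125, 155 and 282 rpm in PND0, at 171, 160, 145 and 132 rpm in PND2N, and at 201, 143, 188 and 149 rpm in PND2R. All groups overlapped, and the highest value was in PND0 replicate 4.

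In every library the 3p arm of miR-7134 outnumbered the 5p arm. Summed over libraries, 35828 of the reads came from the 3p arm and 7201 from the 5p arm, so that 3p made up 83.3%. The 3p share averaged 84.6% ± 3.12 in PND0, 85.9% ± 5.24 in PND2N and 82.8% ± 1.47 in PND2R (SD, n = 4), ranges that overlapped.

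**Figure D5:**
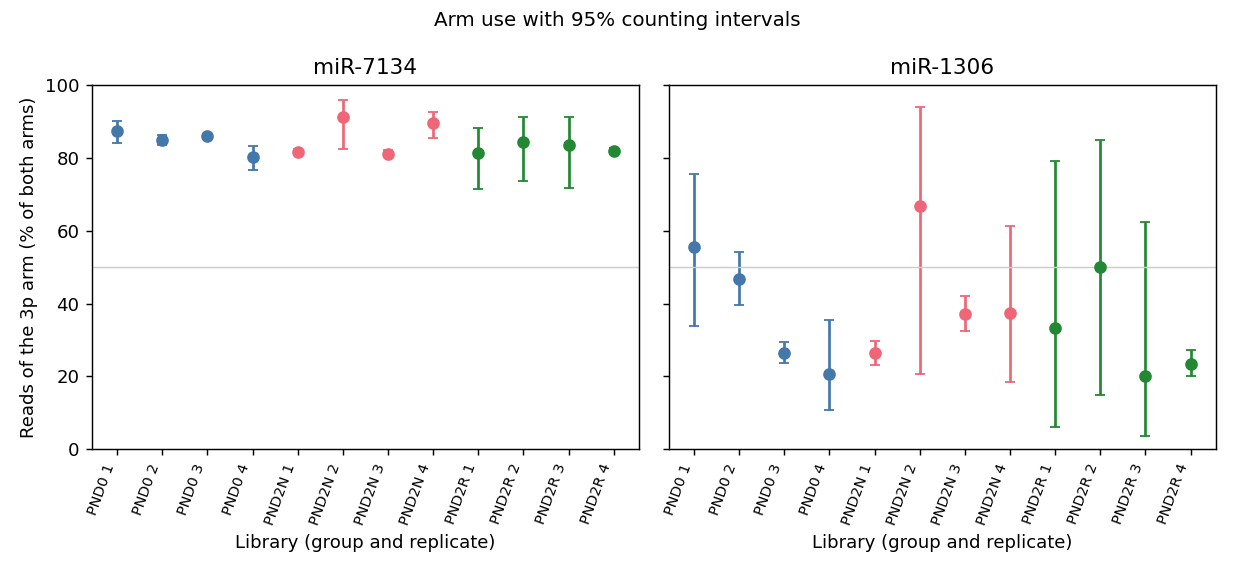
Reads of the 3p arm as a share of the reads of both arms (y axis, %) in every library (x axis) for miR-7134 (left) and miR-1306 (right), with 95% Wilson counting intervals and a line at 50%. miR-7134 stayed between 80.2% and 91.3%, while miR-1306 ran from 20.0% to 66.7% with intervals that widen in the shallow libraries.

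The second hairpin with both arms in all 12 libraries, miR-1306, used the opposite arm more. RefSeq places it within DGCR8, the gene of the RNA-binding partner of Drosha. Its 5p arm held 1980 reads in all and its 3p arm 802, which made 28.8% from 3p. The 5p arm was higher in 9 libraries, the 3p arm in 2, PND0 replicate 1 (10 of 18 reads) and PND2N replicate 2 (2 of 3 reads), and 1 library had equal reads. Even the deep libraries differed, with 46.8% (95% interval 39.5% to 54.3%) in PND0 replicate 2 against 26.5% (23.7% to 29.5%) in PND0 replicate 3.

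Most other members with named arms were seen from 1 arm. miR-4334 and miR-7142 were above the floor only as 3p, miR-1296, miR-1839, miR-7136, miR-7138 and miR-7144 only as 5p, and miR-7143 only as 3p, with 1 read. For miR-2320 the 3p arm gave 5.53% of the summed reads, for miR-7139 1.92%, for miR-7135 98.0% and for miR-7137 99.5%. In deep libraries the floor hides up to 12 reads of the weaker arm, so these shares can be more extreme than the reads were.

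miR-1468 was the second most abundant member, ranked 115 among all rows. Its level was 183, 177, 280 and 333 rpm in PND0, 205, 320, 174 and 198 rpm in PND2N, and 120, 143, 125 and 147 rpm in PND2R. Every PND2R library lay below every library of the other groups, while PND0 and PND2N overlapped. Of all 268 rows tested, 4.48% had PND2R below PND0 without overlap, and 0.746% had PND2N above PND2R. The means of miR-1468 were 243 ± 76.0, 224 ± 65.4 and 134 ± 13.3 rpm (SD, n = 4). The PND2R values of replicates 1 to 3 rested on 9, 10 and 6 reads, with upper 95% bounds of 229, 264 and 273 rpm. PND2R replicate 4, with 1383 reads, had an interval of 140 to 155 rpm. These intervals cover counting error only and not the spread between animals.

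The lower level of miR-1468 in PND2R did not pass the test over all rows. Against PND0 its log2 fold change was -0.77 ± 0.28 (SE; limma, unadjusted p = 0.0157, adjusted p = 0.389), with PND2R higher in 0 of 16 pairs of libraries. edgeR on the recovered reads gave -0.79 (adjusted p = 0.453). For PND2N against PND2R, where it was named after its values were seen, it was 0.67 ± 0.28 (limma, unadjusted p = 0.0316, adjusted p = 0.349), higher in 16 of 16 pairs, and edgeR gave 0.70 (adjusted p = 0.603). These comparisons share the PND2R libraries and are not separate evidence. Without the libraries of under 100000 reads, which leaves 1 in PND2R, the PND2N against PND2R value was 0.36 by limma and 0.46 by edgeR.

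The next members by level were miR-1343 and miR-1306-5p, at 52.2 and 41.9 rpm on average. miR-1343, whose hairpin RefSeq places within PDHX, a pyruvate dehydrogenase complex gene, stood at 40.9, 30.04, 67.2 and 101 rpm in PND0, at 62.8, 0, 34.6 and 49.5 rpm in PND2N, and at 40.1, 100, 41.7 and 58.5 rpm in PND2R. The groups overlapped, and the value of 0 was that of PND2N replicate 2, where a single read would be 26.7 rpm. miR-1306-5p stood at 17.2, 25.5, 54.7 and 82.5 rpm in PND0, at 42.8, 26.7, 28.6 and 41.2 rpm in PND2N, and at 26.7, 28.6, 83.3 and 44.8 rpm in PND2R, and its groups overlapped as well.

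Below these, miR-4334-3p averaged 40.4 rpm, miR-1249 23.7, miR-1306-3p 22.7, miR-2320-5p 17.0, miR-2483 13.4, miR-9843-3p 13.3, miR-7142-3p 11.7, miR-7139-5p 10.3 and miR-7144-5p 10.1 rpm. Neighbours in this order did not differ beyond their spread, since the SD over the 12 libraries was 23.7 rpm for the first of them and 10.7 rpm for the last. miR-1296-5p (7.65 rpm), miR-7137-3p (4.37 rpm) and miR-1285 (3.19 rpm in each of 2 rows) followed. Of the 31 rows, 9 were above the floor in 1 to 3 libraries, and each of these rows held at most 56 reads summed over all libraries. miR-1285 and miR-2411 each had 2 rows with equal reads in every library, so the same reads were listed at both copies.

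Between nursed and newborn gilts no member stood apart. Of the 22 member rows tested, 0 were called at an adjusted p under 0.05 by limma, edgeR, limma voom or DESeq2, and over all 268 rows each tool called 0%. At an unadjusted p under 0.05 limma gave 0 members against 22 of all rows (8.21%), edgeR 0 against 6.34%, limma voom 1 against 8.96% and DESeq2 0 against 5.6%. No member had groups that did not overlap, with a background of 0.746% of rows higher and 2.99% lower. The median log2 fold change was -0.13 over members and -0.20 over all rows, with 6 members above and 16 below 0. Over all rows, 67 were above and 201 below 0. On the deposited scale the split was 3 above and 19 below for members, and 29 and 239 over all rows. By limma voom it was 9 above and 13 below for members, and 129 and 139 over all rows.

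The 3 members with the smallest p in this comparison were miR-7139-5p, miR-1343 and miR-7142-3p. miR-7139-5p, from a hairpin within the cell cycle gene E2F7, stood at 6.46, 6.74, 15.7 and 15.96 rpm in PND0 and at 7.03, 0, 12.02 and 0 rpm in PND2N. Its groups overlapped, and both values of 0 came from PND2N libraries of fewer than 1000000 reads. The log2 fold changes were -0.57 ± 0.30 (SE; limma adjusted p = 0.653) for miR-7139-5p, -0.79 ± 0.56 (limma adjusted p = 0.693) for miR-1343 and -0.43 ± 0.39 (limma adjusted p = 0.758) for miR-7142-3p. miR-7142-3p, from a hairpin within the kinase gene MARK2, stood at 8.61, 9.27, 14.2 and 18.6 rpm in PND0, at 8.89, 0, 11.9 and 8.25 rpm in PND2N, and at 0, 28.6, 20.8 and 11.3 rpm in PND2R, again with overlap. Without PND2N replicate 2, the fold changes of miR-1343 and miR-7142-3p were -0.16 and -0.19.

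Between replacer-fed and newborn gilts no member was called, and the groups of 1 did not overlap. Of 22 rows 0 were called by limma, edgeR, limma voom or DESeq2, as were 0% of all rows. At an unadjusted p under 0.05 limma gave 2 members against 29 of all rows (10.8%), edgeR 1 against 10.4%, limma voom 2 against 13.4% and DESeq2 1 against 6.72%. In 1 member, miR-1468, the groups did not overlap, with PND2R lower, against a background of 4.48% lower and 2.99% higher. The median log2 fold change was -0.037 over members and -0.076 over all rows, with 11 members on each side of 0. Over all rows, 110 were above and 158 below 0. The direction depended on the scaling over all rows as well as over the members. On the deposited scale 3 members were above and 19 below 0 (median -0.42), against 29 and 239 of all rows. Above and below 0 were 13 and 9 members by edgeR (137 and 131 of all rows) and 14 and 8 by DESeq2 (142 and 126). By limma voom they were 15 and 7 members (median 0.15), against 152 and 116 of all rows.

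Beside miR-1468, the smallest p values were those of miR-2483 and miR-7144-5p. miR-2483, from a hairpin within TENM1, the gene of a cell-surface teneurin, stood at 6.46, 5.90, 13.1 and 2.66 rpm in PND0, at 8.21, 0, 10.8 and 8.25 rpm in PND2N, and at 26.7, 28.6, 41.7 and 7.88 rpm in PND2R. The 3 high values were 2 reads each in the shallow PND2R libraries, and the deep PND2R library, with 74 reads, lay within the range of PND0. With the reads of each group pooled, the levels were 11.1, 9.27 and 8.34 rpm in PND0, PND2N and PND2R. The log2 fold change of PND2R against PND0 was 1.03 ± 0.35 (SE; limma, unadjusted p = 0.0109, adjusted p = 0.389), and without the libraries of under 100000 reads it was 0.10 by limma and -0.050 by edgeR.

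miR-7144-5p showed the same arrangement at low counts. From a hairpin within ARGLU1, a gene of RNA splicing and transcription, it stood at 6.46, 3.93, 9.05 and 7.98 rpm in PND0, at 5.08, 0, 5.83 and 8.25 rpm in PND2N, and at 13.4, 14.3, 41.7 and 5.22 rpm in PND2R. Its 3 high values were of 1, 1 and 2 reads, and the deep PND2R library, with 49 reads, was below 3 of the 4 PND0 libraries. The log2 fold change of PND2R against PND0 was 0.63 ± 0.33 (SE; limma adjusted p = 0.561), 0.29 without PND2R replicate 3 and -0.14 without the 4 shallow libraries.

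Between nursed and replacer-fed gilts at 50 h, 0 of 22 members were called by limma, edgeR, limma voom or DESeq2, and 0% of all rows. At an unadjusted p under 0.05 limma gave 4 members against 35 of all rows (13.1%), edgeR 1 against 7.46%, limma voom 0 against 8.58% and DESeq2 0 against 6.72%. The groups of miR-1468 did not overlap, with PND2N higher, against a background of 0.746% of rows higher and 5.22% lower. The median log2 fold change was -0.12 over members and -0.15 over all rows, with 10 members above and 12 below 0. Over all rows, 104 were above and 164 below 0. On the deposited scale the split was 12 above and 10 below for members, and 159 and 109 over all rows. By DESeq2 it was 6 above and 16 below for members, and 118 and 150 over all rows.

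The named members of this comparison were the low-count rows described above. miR-2483 had a log2 fold change of -1.06 ± 0.35 (SE; limma, unadjusted p = 0.00891, adjusted p = 0.250), which was 0.092 without the shallow libraries. miR-7139-5p, at 13.4, 14.3, 20.8 and 10.6 rpm in PND2R, had -0.82 ± 0.30 (limma, unadjusted p = 0.0175, adjusted p = 0.314), and -0.41 without them. miR-7144-5p had -0.84 ± 0.33 (limma, unadjusted p = 0.0249, adjusted p = 0.334), and 0.10 without them. In all 3 the level in the shallow PND2R libraries was set by 1 or 2 reads.

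By position, most members above the floor lie within protein-coding genes. RefSeq placed 90 of the 108 member numbers on a chromosome of Sscrofa 11.1 and 22 of the 23 numbers with a row above the floor. Of these 22, 18 lie within a protein-coding gene, as do 155 of all 307 placed pig miRNA genes (50.5%) and 33 of the 71 member genes at the floor everywhere. Beyond those named, hosts included KIAA0930 for miR-1249, JMJD1C for miR-1296, UBAP2L for miR-2411, DNPEP for miR-4334, ABCC1 for miR-7135, BUD23 for miR-7137, FGFR4 for miR-7138, SGMS2 for miR-9843 and HSPA12A for miR-9851. miR-1839 and miR-7143 lie within lncRNA genes, and miR-7136 and miR-9860 between genes. The strand was not compared, and the messenger RNAs of the hosts were not measured here.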

How the data were processed

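Uterine small RNA of 12 gilts was read as single 50 bp ends on an Illumina HiSeq from 500 ng of RNA each, per the labels' protocols. The submitters' processing notes name Sscrofa 10.2 and FastQC; an aligner, a counting tool and a normalization method are not given in the sources used here. Deposited values are a normalized signal, in each library a read count over 1 common factor with a floor of 1, as the values themselves show. A search for the step that starts at the smallest value, the floor, found it in 4 libraries only, so in all 12 it was read from the values above the floor. Dividing by this step gave reads: within a tolerance of 0.1, 100% of values of at most 1000 reads were whole numbers, and at least 95.9% of all. Reads carry no molecular identifiers. Replicates were numbered in accession order. The p-values rest on the spread between libraries, each from its own gilt, and this spread includes counting error as well as differences between animals.

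The test was limma 3.58.1 (R 4.3.3, trend, two-sided, all 12 libraries, 9 residual degrees of freedom) on log2(rpm + 10), for the 268 rows that 4 or more libraries held above the floor, Benjamini-Hochberg adjusted, threshold 0.05. Fold changes on this scale understate those of low rows. The unit is not counts, so edgeR 4.0.16 (TMM 0.839 to 1.09), DESeq2 1.42.0 and limma voom on recovered reads were alternatives. rpm values are relative: a change in a very abundant miRNA moves all others. The tests were tried on simulated counts, in which rows over 1% of a library were kept fixed. This limit was set after limma gave too many false calls with very abundant rows changed. The trial therefore does not cover changes in such rows. Named members are the 5 most abundant and the 3 with the smallest limma p per comparison; others were named after their values were seen. Members and lists were chosen with earlier results of these data known. Number lists for human and cattle come from background knowledge. RefSeq genes on unplaced scaffolds were left out, and some host genes are not reported here.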

Additional observations from a re-analysis of the deposited data

Results flagged for a closer look

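Among 51 sets of 4 libraries examined, 1 value stood far from the others of its group: miR-1249 in PND2R replicate 2, at 57.3 rpm, against 26.7 rpm in the nearest and 20.8 rpm in the farthest of the other 3. Its gap to the nearest was 0.838 of the whole range, above Dixon's limit for 4 values. The value rested on 4 reads in a library of 69816, and chance alone flags about 1 in 20 groups.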

How the results depend on the processing

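No paired analysis was possible because replicates carry no number in the labels. Of 398 alternative values, 386 kept their direction and their side of the threshold or stayed within the spread, and 0 members were called in any of 69 settings of the comparisons. The 10 named fold changes passed in 0 of 222 alternatives; the smallest adjusted p was 0.0634 by limma (miR-2483, PND2N against PND2R, without PND2R replicate 4), within a range to 0.999. Directions reversed only without the libraries of under 100000 reads: miR-2483 to -0.050 by edgeR (PND2R against PND0) and to 0.092 by limma and 0.30 by edgeR (PND2N against PND2R), and miR-7144-5p to -0.14 and -0.34 (PND2R against PND0) and to 0.10 and 0.17 (PND2N against PND2R). edgeR without these libraries was chosen after seeing the data. Leaving out 1 library at a time gave 0 to 3 calls over all rows for PND2N against PND2R, the 3 without PND2R replicate 4. The summed share in PND2R was 0.178% with the most abundant row out of the total and 0.173% with 1 row per name. It was 0.188% with floor values as 1 and 0.125% in its 1 library of over 100000 reads. These values lay beyond the SD of PND2R, 0.0151, which was smaller than that of PND0 (0.0409) or PND2N (0.0508). They do not show that PND2R depended more on the processing than the other groups. The most abundant row held 16.9% of the total on average, so leaving it out raises the share in every group. Taking floor values as 1 adds to the sum for every member row at the floor. Keeping 1 row per name takes repeated rows out of the sum and the total. The value of 0.125% is the share of PND2R replicate 4 alone. On the deposited scale the median over all rows was -0.49, -0.58 and 0.10 (PND2N against PND0, PND2R against PND0, PND2N against PND2R), against -0.20, -0.076 and -0.15, and by edgeR -0.048, 0.019 and -0.045. A member of 10 rpm has under 1 expected read in each of the 4 shallow libraries.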
